A study of Labeotropheus fuelleborni and Maylandia zebra with 12 samples.

Results

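Of 26490 gene features counted in oral tissues of cichlid fish, 5 were named for the collagen chains described here: col1a1, col1a2, col10a1, col11a1 and col27a1. They were taken by name from the table of read counts, and all 5 lay among the 2962 genes with enough counts to be tested. The libraries came from Labeotropheus fuelleborni and Maylandia zebra, rock-dwelling cichlids of Lake Malawi, and from a pair of tissues of each. Tooth means replacement teeth lifted from their crypts in the jaw bone after the outer soft tissue had been removed, and taste bud means a strip of epithelium cut from the lower jaw on the lip side of the outer tooth row. The 4 groups had 3 libraries each: L. fuelleborni tooth (replicates 0, 3 and 4), L. fuelleborni taste bud (replicates 1, 2 and 4), M. zebra tooth (replicates 0, 1 and 3) and M. zebra taste bud (replicates 1, 2 and 3). The labels give no treatment, genotype, age or sex, and do not say whether each library came from its own fish, so that p-values measure the spread between these libraries, which may be partly technical.

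Collagens are proteins of 3 chains wound into a triple helix. Fibrillar collagens are secreted as procollagens, trimmed outside the cell and packed into fibrils. Type I collagen, whose chains include the products of col1a1 and col1a2, is the main protein of dentin and bone. The product of col11a1 is a chain of a minor fibrillar collagen that sets where fibrils begin and how thick they grow, best known from cartilage, and col27a1 encodes a fibrillar chain known from cartilage and the developing skeleton of mouse and zebrafish. The product of col10a1 forms networks instead of fibrils. It marks hypertrophic chondrocytes in mammals, and in zebrafish and medaka it is also made by osteoblasts.

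Totals per library ranged from 72226 to 300663 counts, and a single count corresponded to 3.02 to 14.4 CPM, the unit in which counts are scaled to a common library size, here after TMM factors. The labelled tissues were checked against marker lists, given as summed CPM per library. Of 7 osteoblast and odontoblast markers, 6 were counted in tooth of each species (alpl, panx3, phex, phospho1, runx2 and sp7, with bglap at 0), and the tooth sums were 651 to 1805 CPM in L. fuelleborni and 1144 to 1398 in M. zebra. Among taste bud libraries, where runx2 alone was counted, the same sum was at most 5.71 CPM for L. fuelleborni and 9.27 for M. zebra. All 9 keratinocyte markers were counted in each taste bud group, with sums of 3649 to 4589 CPM in L. fuelleborni and 997 to 3230 in M. zebra, against 296 to 649 and 436 to 619 in the tooth groups. The 6 taste receptor cell markers set the tissues apart less: their sums were 1000 to 1494 CPM in taste bud of L. fuelleborni and 1993 to 3728 in that of M. zebra, against 622 to 944 and 664 to 831 in tooth. Of these, trpm5 had 1320 taste bud counts against 733 in tooth and ddc 80 against 5, while itpr3 (12 against 105), plcb2 (2 against 32) and pou2f3 (0 against 18) had more counts in tooth. Of 7 cartilage markers found by name, col9a2 and matn1 had no count in any library, and acan had 3 counts in all tooth libraries together. The marker matn4 had 59 tooth counts against 0 in taste bud, col9a3 19 against 8, comp 8 against 9 and matn3 3 against 2. The tooth sums of the list were 54.3 to 164 CPM for L. fuelleborni and 60.3 to 99.2 for M. zebra. Its taste bud sums were 23.6 to 35.9 and 0 to 27.8. Other cartilage markers sought, among them sox9 and col2a1, were not found under these names, so their levels are not known. All marker and pathway lists hold only features found by name, while 15871 of the 26490 features carry a LOC number instead. The library kit marks strand, but no source used here tells whether counting used it, so reads from a gene and from an antisense partner may not have been told apart. Reads of near-identical gene copies could also be split between features.

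The question asked first was how far these chains set tooth apart from taste bud. All 5 genes were higher in tooth in both species together, in L. fuelleborni alone and in M. zebra alone. In each of them the lowest of the 6 tooth libraries lay above the highest of the 6 taste bud libraries, a pattern that 20.1% of all tested genes showed in favour of tooth. By edgeR's quasi-likelihood test, 32.6% of all tested genes were higher in tooth at an adjusted p under 0.05. The median log2 fold change (log2FC) of the 5 genes was 5.99, with a range of 5.13 to 7.12, against 0.21 over all genes tested. The genes col10a1, col11a1 and col27a1 passed the filter on low counts through their tooth libraries, and so could hardly be called in favour of taste bud. For col1a1 and col1a2, the counts in M. zebra taste bud were also enough to pass it. All 5 genes were chosen with earlier results of these data known. Their comparison with all tested genes, here and within each species, is therefore a description only. Markers of other cells that make or adjoin collagen matrix moved with the tissues too. Of 8 fibroblast markers, 7 were counted in tooth of each species and 5 in taste bud of each, twist2 being at 0 throughout, with sums of 400.5 to 1826 CPM in L. fuelleborni tooth and 1309 to 1679 in M. zebra tooth against 33.1 to 144 and 14.4 to 102 in taste bud. Most fibroblast marker counts in tooth were of dcn (931 against 13 in taste bud) and lum (522 against 2). Both also stand in the list of fibril-binding matrix genes given below. The others were pdgfra (104 against 0), postn (56 against 34), prrx1 (41 against 4), pdgfrb (33 against 3) and twist1 (24 against 0). All 4 endothelial markers were counted in tooth and 2 in taste bud of each species. The endothelial sums were 85.8 to 293 CPM in L. fuelleborni tooth and 128 to 141 in M. zebra tooth, against at most 5.71 and 13.98 in taste bud. Their part in the collagen difference was not tested. In bulk tissue, fewer cells of a type and less RNA per cell cannot be told apart.

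**Figure D1:**
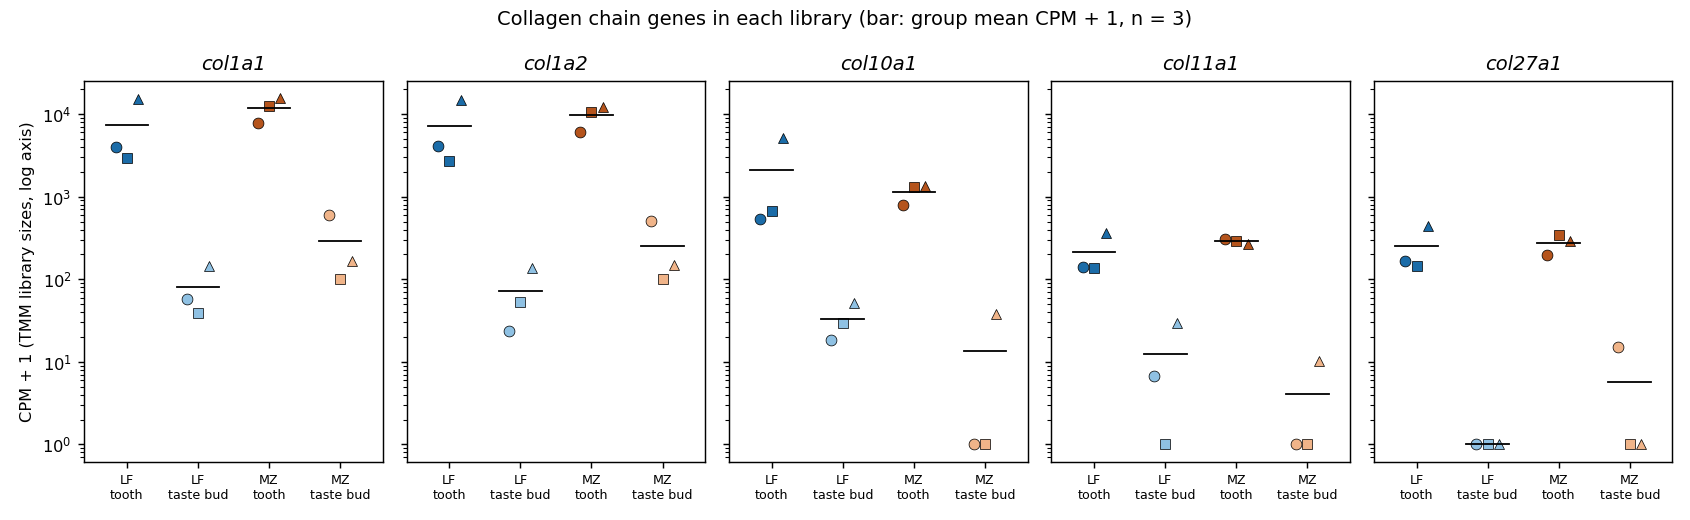
Level of each of the 5 collagen genes in each of the 12 libraries, as CPM + 1 on a log axis, by species (LF, L. fuelleborni; MZ, M. zebra) and tissue, with symbols for the replicates of a group in ascending number and bars for the group mean (n = 3). Every tooth library lies above every taste bud library for each gene, and points at 1 are libraries with 0 counts.

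The gene of the alpha 1 chain of type I collagen, col1a1, had 486, 408 and 5035 counts in L. fuelleborni tooth (3991, 2918 and 15195 CPM in replicates 0, 3 and 4). In M. zebra tooth it had 1346, 2688 and 3532 counts, or 7855, 12475 and 15525 CPM in replicates 0, 1 and 3. Replicate 4 of L. fuelleborni thus stood with the highest M. zebra libraries, and the other L. fuelleborni libraries below all of M. zebra. Taste bud counts of col1a1 were 10, 8 and 20 in L. fuelleborni (57.1, 37.8 and 144 CPM in replicates 1, 2 and 4) and 43, 7 and 18 in M. zebra (601, 101 and 167 CPM in replicates 1, 2 and 3). Replicate 1 of M. zebra taste bud was the high one there. Tooth means were 11952 ± 3862 CPM (SD, n = 3) in M. zebra and 7368 ± 6799.95 in L. fuelleborni, and taste bud means 289.8 ± 272 and 79.5 ± 56.4 in the same order of species. The levels fell in that order, and neighbours of the same tissue did not differ beyond their spread. The tissue difference of col1a1 had a log2FC of 5.97 (SE 0.55, edgeR adjusted p = 1.91e-09).

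The partner chain gene col1a2 had 498, 383 and 4945 counts in L. fuelleborni tooth, which gave 4089.5, 2739 and 14924 CPM. Its counts in M. zebra tooth were 1028, 2286 and 2805, or 5999, 10609 and 12329.6 CPM. Replicate 4 of L. fuelleborni was here the highest of all libraries, and its companions were again below all of M. zebra. Taste bud counts of col1a2 were 4, 11 and 19 in L. fuelleborni (22.9, 52.0 and 136 CPM) and 36, 7 and 16 in M. zebra (503, 101 and 148 CPM). Means fell in the same order, from 9646 ± 3273 CPM (SD, n = 3) for M. zebra tooth and 7251 ± 6679 for L. fuelleborni tooth to 251 ± 219.9 and 70.4 ± 59.0 in taste bud, and the species overlapped within each tissue. The tissue difference of col1a2 had a log2FC of 5.99 (SE 0.56, edgeR adjusted p = 2.1e-09). Together col1a1 and col1a2 took 0.643% to 3.32% of all counts in a tooth library and 0.00634% to 0.109% in a taste bud library.

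The network-forming chain gene col10a1 had 66, 93 and 1698 counts in L. fuelleborni tooth, or 542, 665 and 5124.5 CPM. In M. zebra tooth it had 135, 281 and 305 counts, or 788, 1304 and 1341 CPM. Replicate 4 of L. fuelleborni was the highest of all 12 libraries, while replicates 0 and 3 were the lowest tooth libraries. Taste bud counts of col10a1 were 3, 6 and 7 in L. fuelleborni (17.1, 28.4 and 50.3 CPM), and 0, 0 and 4 in M. zebra, where replicate 3 alone had counts (37.1 CPM). Tooth means were 2111 ± 2611 CPM in L. fuelleborni and 1144 ± 309 in M. zebra, and taste bud means 31.9 ± 16.9 and 12.4 ± 21.4 (SD, n = 3). In both tissues L. fuelleborni had the higher mean, by less than the SD of the more variable species. The tissue difference of col10a1 had a log2FC of 6.11 (SE 0.64, edgeR adjusted p = 1.21e-08).

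The minor fibrillar chain gene col11a1 had 17, 19 and 120 counts in L. fuelleborni tooth (139.6, 136 and 362 CPM) and 52, 63 and 60 in M. zebra tooth (303, 292 and 264 CPM). The M. zebra values were close together, and L. fuelleborni lay on both sides of them. In taste bud col11a1 had 1, 0 and 4 counts in L. fuelleborni (5.71, 0 and 28.7 CPM) and 0, 0 and 1 in M. zebra (0, 0 and 9.27 CPM), so that single reads decide the level. Means were 287 ± 20.5 CPM (SD, n = 3) for M. zebra tooth and 213 ± 129.6 for L. fuelleborni tooth, then 11.5 ± 15.2 for L. fuelleborni taste bud and 3.09 ± 5.35 for M. zebra taste bud, with no difference between species beyond the spread. The tissue difference of col11a1 had a log2FC of 5.13 (SE 0.65, edgeR adjusted p = 2.48e-07).

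The fibrillar chain gene col27a1 had 20, 20 and 147 counts in L. fuelleborni tooth (164, 143 and 444 CPM) and 34, 73 and 66 in M. zebra tooth (198, 339 and 290.1 CPM). Replicate 4 of L. fuelleborni was again the highest and its companions the lowest. In taste bud a single count was found, in M. zebra replicate 1, and 0 counts in L. fuelleborni allow a level of up to 5.71 CPM over that group, by counting error alone. Tooth means were 250.3 ± 168 CPM in L. fuelleborni and 276 ± 71.3 in M. zebra (SD, n = 3), closer than their spread. The tissue difference of col27a1 had a log2FC of 7.12 (SE 0.74, edgeR adjusted p = 2.25e-08), and with 1 count in taste bud the ratio of summed counts was 231, with a 95% counting interval of 41.2 to 9146. The fitted value is a mean over the species and rests in part on the 0 counts of L. fuelleborni taste bud, so it is no measure of size.

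Within L. fuelleborni all 5 genes were higher in tooth, where 24.6% of all tested genes were, and within M. zebra all 5 were again, where 26.9% were. Summing counts over a group and dividing by its summed TMM library sizes, tooth exceeded taste bud 138-fold for col1a1 in L. fuelleborni and 45.0-fold in M. zebra, with 95% counting intervals of 101 to 196 and 35.5 to 58.0. These intervals do not cover the spread between libraries. In L. fuelleborni tooth, replicate 4 held 5035 of the 5929 summed counts of col1a1, 4945 of 5826 of col1a2 and 1698 of 1857 of col10a1. It also held 120 of 156 counts of col11a1 and 147 of 187 of col27a1. The summed ratios of that species thus rest largely on this library. For col1a2 the ratio was 152 in L. fuelleborni (109 to 219.6) and 42.0 in M. zebra (32.5 to 55.2). The ratio of col10a1 was 103 (63.2 to 180.4) and 72.9 (28.4 to 268), and that of col11a1 27.7 (11.6 to 86.4) and, on 1 taste bud count, 70.8 (12.5 to 2813). For col27a1 it was at least 55.3 in L. fuelleborni, against a floor of 3 counts over the taste bud group, and 70.0 (12.4 to 2781) in M. zebra. Whether the tissue difference itself differed between the species was tested with an interaction term. It had a log2FC of 1.19 (SE 0.93) for col1a1, 1.44 (SE 0.95) for col1a2, -0.10 (SE 1.03) for col10a1, -1.60 (SE 1.56) for col11a1 and 2.56 (SE 1.76) for col27a1, with edgeR adjusted p-values of 0.729 to 1. The value of col27a1 rests on 0 taste bud counts in L. fuelleborni and is no measure of size. Of the 2962 genes tested, 0 passed for this term with edgeR (0%), with 228 at an unadjusted p under 0.05, 0 with DESeq2 and 1 with limma voom.

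**Figure D2:**
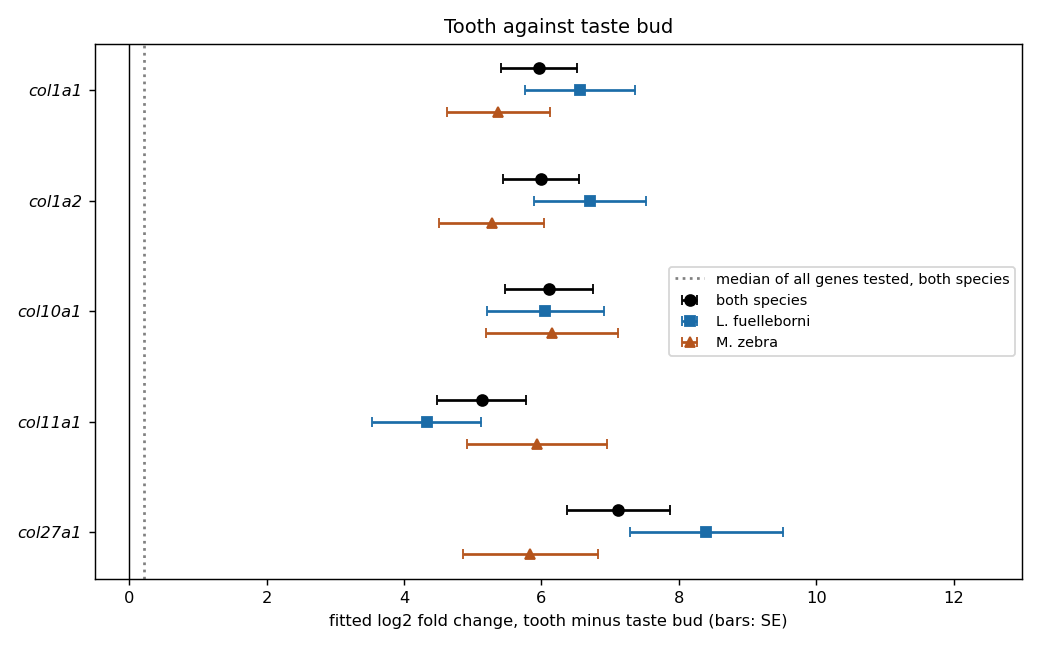
Fitted log2FC of tooth against taste bud for the 5 genes, over both species (circles), in L. fuelleborni (squares) and in M. zebra (triangles), with bars for the SE and a dotted line for the median of all genes tested over both species (0.21). All values are above 4, and the value of col27a1 in L. fuelleborni rests on 0 taste bud counts and is no bound.

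In each of these tissue comparisons DESeq2 passed 4 of the 5 genes and gave no p for col10a1. All 15 of the edgeR calls held without any 1 of the 12 libraries, but the sizes moved by over 1.5-fold in some. Without L. fuelleborni tooth replicate 4, the log2FC within that species fell from 6.56 to 5.43 for col1a1, from 6.71 to 5.59 for col1a2, from 6.06 to 4.20 for col10a1, from 4.33 to 3.63 for col11a1 and from 8.40 to 7.55 for col27a1. Both values of col27a1 stand against 0 taste bud counts and so are no measure of size. Over both species the value of col10a1 was then 5.18. Without M. zebra taste bud replicate 3, which held all counts of col10a1 and col11a1 in its group, the fitted values in M. zebra were 10.6 and 8.60 (8.29 and 6.44 over both species), against groups at 0 counts and so no measure of size, and that of col27a1 was 5.11 against 5.84. Without M. zebra taste bud replicate 1 the M. zebra values were 6.37 for col1a1, 6.17 for col1a2 and 8.57 for col27a1 (8.51 over both species), the last again against 0 counts. Leaving out L. fuelleborni taste bud replicate 4 gave 5.92 for col11a1 and 7.42 for col1a2 in that species, and 5.90 for col11a1 over both. Leaving out its replicate 2 gave 3.63 for col11a1. The call of col11a1 within L. fuelleborni ended without the 3 libraries of highest ribosomal protein share (log2FC 2.13, SE 0.90, edgeR adjusted p = 0.096), which left 1 taste bud library of that species.

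Between species, 0 of the 5 genes passed in tooth, where 1.52% of all tested genes did. The log2FC of L. fuelleborni against M. zebra tooth was -0.70 for col1a1 (95% interval -1.96 to 0.57) and -0.41 for col1a2 (-1.68 to 0.86). It was 0.89 for col10a1 (-0.44 to 2.22), -0.40 for col11a1 (-1.62 to 0.82) and -0.11 for col27a1 (-1.28 to 1.05), with edgeR adjusted p-values of 0.831 to 0.998. At an unadjusted p under 0.05, 281 of all genes passed in this comparison. The intervals reached below a log2FC of -1 for every gene but col10a1, and above 1 for col10a1 and col27a1 alone.

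Among the tooth libraries, replicate 4 of L. fuelleborni tooth stood above the mean of its companions by a factor of 4.40 for col1a1, 4.37 for col1a2, 8.49 for col10a1, 2.63 for col11a1 and 2.89 for col27a1, while the median factor over all tested genes was 1.07. The highest of the 3 libraries exceeded the lowest by 2.67 to 9.46-fold over the 5 genes in L. fuelleborni tooth and by 1.15 to 2.06-fold in M. zebra tooth. Other measures moved in the same library. Its summed osteoblast and odontoblast markers were at 1805 CPM, against 714 and 651 in replicates 0 and 3, with 6 of 7 markers counted in each. Of 4 osteoclast markers it had 4 counted, with a sum of 516 CPM against 41.1 and 71.5, and of 8 fibroblast markers it had 7, twist2 being at 0, with a sum of 1826 CPM against 1289 and 400.5. In M. zebra tooth the osteoclast sums were 102 to 193 CPM. The sums of 2 immune markers (688 CPM against 172 and 107), 4 endothelial markers (293 against 115 and 85.8) and 9 keratinocyte markers (649 against 296 and 393) were also higher in replicate 4. Other sums were lowest in it. These were 6 taste receptor cell markers (622 CPM against 944 and 915), 7 cartilage markers (54.3 against 57.5 and 164) and 3 muscle markers (3.02 against 24.6 and 85.8). The sum of 2 erythrocyte markers (18.1 against 16.4 and 42.9) lay between. In the same library ribosomal protein genes held 6.59% of counts against 2.51% and 2.53%. It was also the deepest library. In the other tooth libraries of both species the ribosomal share was 1.96% to 2.87%, so that in tooth a covariate of this share mostly marks replicate 4. With ribosomal share as a covariate, the log2FC of col10a1 between species in tooth was -0.71 (SE 0.62), against 0.89 without it. The part of the markers and of depth in the collagen values was not tested.

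Without that library the log2FC of L. fuelleborni against M. zebra tooth was -1.73 for col1a1 (SE 0.63), -1.44 for col1a2 (SE 0.63), -0.87 for col10a1 (SE 0.54), -1.01 for col11a1 (SE 0.66) and -0.80 for col27a1 (SE 0.60). The sign of col10a1 was thus the opposite of that with all libraries, and 0 of the 5 genes passed (edgeR adjusted p = 0.232 to 0.579).

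**Figure D3:**
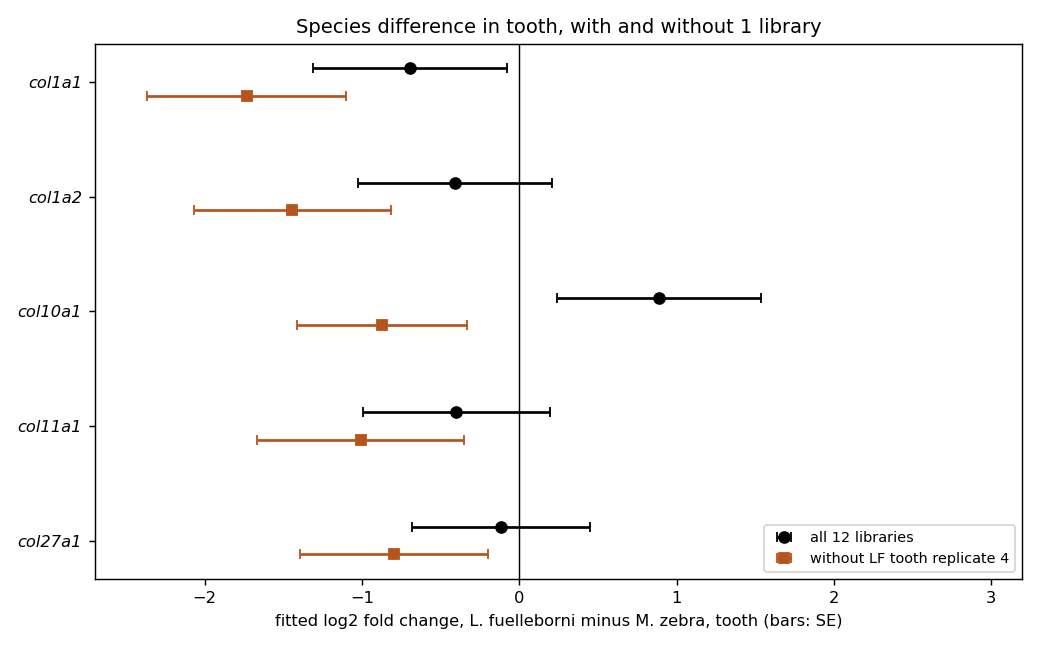
Fitted log2FC of L. fuelleborni against M. zebra in tooth for the 5 genes, with all 12 libraries (circles) and without L. fuelleborni tooth replicate 4 (squares), with bars for the SE. Leaving out the library moves every value to the left, and that of col10a1 from 0.89 to -0.87.

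Ratios between chains within a library do not depend on its depth, nor on gene length when libraries are compared. Both species were counted on the same features, and whether reads of each species map to them equally well was not tested. The share of col1a2 in the summed counts of col1a1 and col1a2 was 50.6%, 48.4% and 49.5% in tooth of L. fuelleborni. It was 43.3%, 46.0% and 44.3% in tooth of M. zebra. The 3 L. fuelleborni libraries all lay above the 3 of M. zebra, and replicate 4 lay among its companions. The means were 49.5% ± 1.10 and 44.5% ± 1.35 (SD, n = 3), a difference of 5.02 percentage points, for which an exact two-sided permutation test gave p = 0.1, the smallest that 3 against 3 allows, and 0.3 adjusted over 3 comparisons. Exact 95% binomial intervals were 47.4% to 53.8%, 44.9% to 52.0% and 48.6% to 50.5% in L. fuelleborni and 41.3% to 45.3%, 44.6% to 47.4% and 43.0% to 45.5% in M. zebra, so that the interval of L. fuelleborni replicate 3 overlapped all 3 of M. zebra. In taste bud, on 14 to 79 counts per library, the share was 28.6%, 57.9% and 48.7% in L. fuelleborni and 47.5% ± 2.25 (SD, n = 3) in M. zebra. Tooth and taste bud differed by 0.715 percentage points (exact permutation within species, p = 0.96), and the species in taste bud by -2.48 (exact p = 0.9).

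The other chains were then set against col1a1 in tooth, a comparison chosen after the values had been seen. For every 100 counts of col1a1, col10a1 had 13.6, 22.8 and 33.7 counts in L. fuelleborni and 10.03, 10.5 and 8.64 in M. zebra. Every L. fuelleborni library was above every M. zebra library. The same held for col27a1, with 4.12, 4.90 and 2.92 against 2.53, 2.72 and 1.87. For col11a1 the values were 3.50, 4.66 and 2.38 against 3.86, 2.34 and 1.70, and the species overlapped. Set against col1a1 in this way, 12.3% of all tested genes were higher in every L. fuelleborni tooth library than in any of M. zebra. The ratio of geometric means between the species was 2.26 for col10a1, 1.66 for col27a1, 1.36 for col11a1 and 1.22 for col1a2, and 1.82, 1.92, 1.62 and 1.22 without replicate 4. An exact permutation test gave p = 0.1 for col1a2, col10a1 and col27a1 (adjusted p = 0.133 over the 4 genes) and p = 0.4 for col11a1. All 4 ratios share col1a1 as denominator, whose fitted log2FC between species in tooth was -0.70, so they are not separate results.

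**Figure D4:**
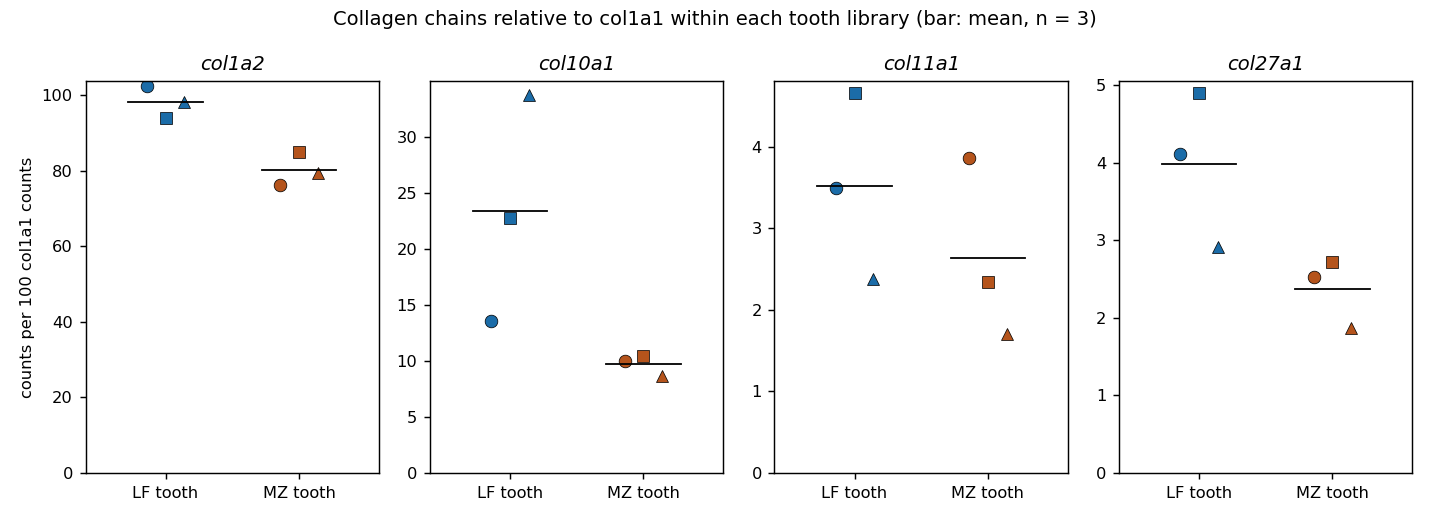
Counts of col1a2, col10a1, col11a1 and col27a1 per 100 counts of col1a1 in each tooth library of L. fuelleborni (LF) and M. zebra (MZ), with bars for the mean (n = 3) and symbols for the replicates in ascending number. The species do not overlap for col1a2, col10a1 and col27a1 and overlap for col11a1.

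In taste bud, 0 of the 5 genes differed between species, where 4.29% of all tested genes did. The type I genes were nearest to the threshold, with a log2FC of L. fuelleborni against M. zebra of -1.88 for col1a1 (SE 0.71, edgeR adjusted p = 0.139) and -1.85 for col1a2 (SE 0.73, adjusted p = 0.155). At an unadjusted p under 0.05, 552 of all genes passed. Without L. fuelleborni taste bud replicate 4, the highest of its group, both passed (log2FC -2.52, adjusted p = 0.0361 and log2FC -2.62, adjusted p = 0.0306), lower in L. fuelleborni. That fit tested 3684 genes, against 2962 with all libraries. Over the fits without 1 library, 64 to 230 genes passed in this comparison. In L. fuelleborni taste bud replicate 4, 5 of 8 fibroblast markers were counted, with a sum of 144 CPM against 57.1 and 33.1 in replicates 1 and 2, and 2 immune markers summed to 819 CPM against 274 and 147. Without M. zebra taste bud replicate 1 the values were -0.84 and -0.90. This M. zebra library held 79 of the 127 type I counts of its group, at 601 and 503 CPM. In it 0 of 7 osteoblast and odontoblast markers were counted, and 2 of 8 fibroblast markers, which summed to 97.9 CPM against 14.4 and 102 in replicates 2 and 3. The part of these in the collagen values was not tested. For col10a1 and col11a1 the log2FC was 0.99 (SE 1.12) and 1.20 (SE 1.43), on 20 and 6 counts in all, and col27a1 was too low for a fold.

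The genes most like each chain were sought among 1588 named genes, by the root mean square difference of centred log2 CPM over the 12 libraries. This is a description, dominated by the tissue difference that all share. The closest to col1a1 was col1a2, at 0.31, where the median gene was at 3.09. Next came sparc, at 0.88, and dcn, at 0.98, which encode the collagen-binding glycoprotein osteonectin and the proteoglycan decorin. For col10a1 the closest were gja1 (0.78), a gap junction gene, and phex (0.84), a peptidase gene of phosphate control. For col11a1 they were dpt (0.45), the gene of the matrix protein dermatopontin, and the transcription factor gene tbx2 (0.48). For col27a1 they were olfml3 (0.29) and sp7 (0.33), the gene of the osteoblast transcription factor osterix. Among the 5 chains, col11a1 and col27a1 were at 0.68 from each other, and all pairs other than these and the type I pair were at 1.04 to 1.46. With a prior count of 0.5 in place of 2, only 1 to 3 of the nearest 5 genes were shared, so that the order depends on how low counts are treated.

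The wider collagen pathway was described from lists, with the count of members as the measure. Of 23 other collagen features, 5 had no count in any library and 10 were tested. Of these, edgeR called 8 in favour of tooth and 0 in favour of taste bud, with a median log2FC of 3.59 over the 10, where 32.6% of all tested genes were called in favour of tooth. The other 2, col28a1 and col6a6, did not pass (log2FC -0.40, adjusted p = 0.457 and log2FC -0.66, adjusted p = 0.275). Within L. fuelleborni, col20a1 (edgeR adjusted p = 0.0569) and col7a1 (0.459) did not pass either, and within M. zebra col4a2 did not (0.0585). The highest were col22a1, at least 51.3-fold higher on 240 tooth counts against 0, and the basement membrane chain gene col4a1, 94.9-fold higher on 148 against 1 (95% counting interval 16.8 to 3775). They were followed by col6a2 (log2FC 4.24) and col6a1 (log2FC 4.04), genes of the beaded-filament collagen type VI. The cartilage chain gene col9a3, which was not tested, had 19 tooth counts and 8 taste bud counts.

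The counts of the other lists stand against the same share of 32.6%. List genes with few taste bud counts, such as plod2 and bgn, passed the filter on low counts through their tooth libraries, as col10a1, col11a1 and col27a1 did. Such genes could hardly be called in favour of taste bud. The counts of calls, here and for the other collagens, are therefore a description only. Of 10 tested genes of collagen folding and hydroxylation, 9 were higher in tooth, with a median log2FC of 3.98. They included the lysyl hydroxylase gene plod2, at least 95.4-fold higher on 446 tooth counts against 0, the prolyl 4-hydroxylase gene p4ha1, 57.1-fold higher on 178 against 2 (95% counting interval 15.6 to 475), and the prolyl 3-hydroxylase gene p3h1, 42.1-fold higher on 197 against 3 (14.2 to 206). The procollagen chaperone gene serpinh1 was also among the 9, while creb3l1, a transcription factor gene kept in this list, did not pass. Within L. fuelleborni, colgalt1 (edgeR adjusted p = 0.13) and p4hb (0.208) did not pass either. Of 4 tested genes of collagen export, 2 were higher in tooth, among them the vesicle coat gene sec23a (log2FC 4.44, SE 0.65, adjusted p = 2.23e-06), and mia3 and ctage5 did not pass, a count near the share over all genes. The other gene called, sar1b, did not pass within L. fuelleborni (edgeR adjusted p = 0.32). Of 9 genes of propeptide cleavage and crosslinking, 1 was tested, the lysyl oxidase relative loxl2, which did not pass (log2FC -0.18, adjusted p = 0.772). The lysyl oxidase gene lox had 26 tooth counts against 0, and the procollagen C-proteinase gene bmp1 had 68 against 10, neither of which was tested. Of 6 tested fibril-binding matrix genes, 5 were higher in tooth (bgn, lum, sparc, dcn and fbn1, with a median log2FC of 5.43 over the 6), and postn did not pass. All 4 tested receptor genes, itga1, ddr1, mrc2 and ddr2, were higher in tooth over both species (median log2FC 2.48). Within species, ddr2 did not pass in L. fuelleborni (log2FC -0.07, edgeR adjusted p = 0.952) and mrc2 did not in M. zebra (log2FC 1.48, adjusted p = 0.194). All 3 tested genes of the degradation list were higher in tooth, the protease genes mmp14 and mmp2 and the protease inhibitor gene timp2. Their ratios of summed counts were 46.0, 17.1 and 53.9. The list of transcription regulators in bone and cartilage held 11 genes, among them the secreted factor genes tgfb2 and ctgf beside transcription factor genes. Of the 11, 2 were tested, sp7 and dlx6, and both were higher in tooth. The ratio was at least 60.9-fold for sp7 on 285 tooth counts against 0. For dlx6 it was 4.15-fold on 110 against 17 (95% counting interval 2.48 to 7.38, edgeR adjusted p = 0.00304). The regulators not tested did not all have more counts in tooth. Within L. fuelleborni dlx6 did not pass (log2FC 1.05, adjusted p = 0.382), and in M. zebra its taste bud group was at 0 counts. The chondrocyte regulator sox5, which was not tested, had 8 tooth counts against 0. Of the tested genes in these 8 lists, 0 passed for the species difference in tooth, where 1.52% of all genes did, so that a count of 0 says little about the lists.

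**Figure D5:**
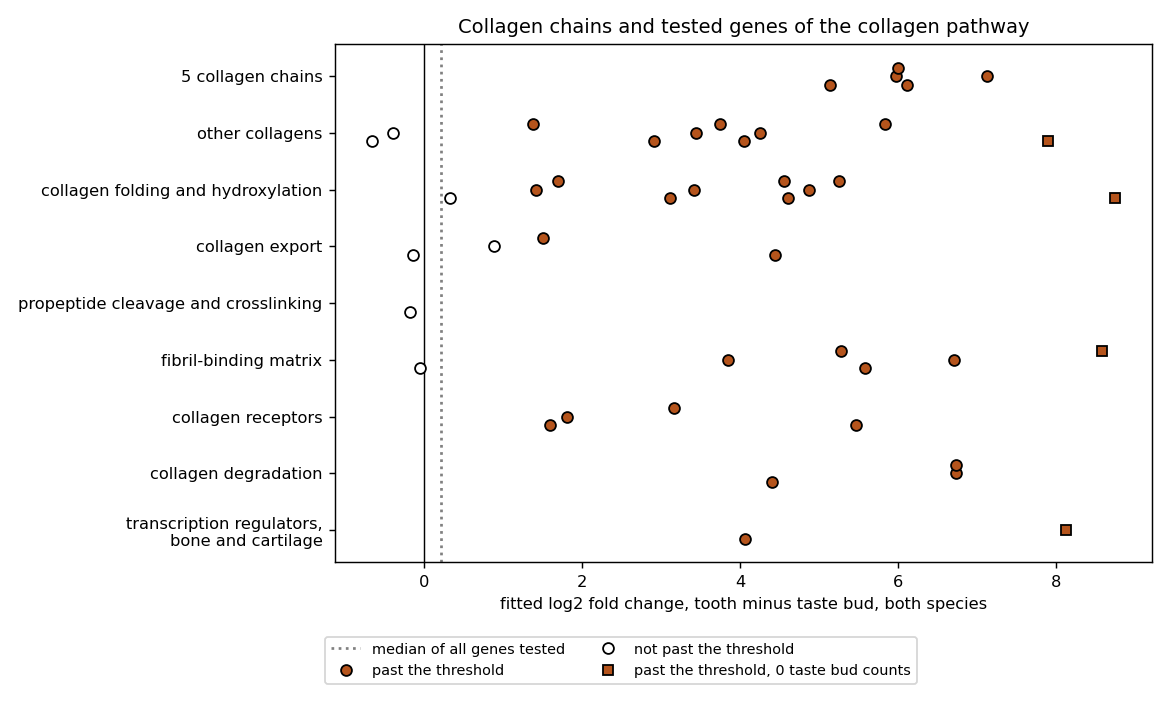
Fitted log2FC of tooth against taste bud over both species for the 5 collagen chains and for the tested genes of 8 lists of the collagen pathway, 1 point per gene, filled where past the threshold and square where taste bud had 0 counts, whose values are no measure of size. The dotted line is the median of all genes tested (0.21), and the 5 chains lie between 5.13 and 7.12.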

How the data were processed

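The authors deposited raw counts of reads for each gene feature and library, not normalized, as the whole-number values and unequal totals also show. Per the labels' protocols, the kit selected mRNA and kept strand information. The submitters' processing notes mention edgeR 3.6.8, limma 3.20.9, HTSeq 0.6.1, TopHat2 2.0.9 and SAMtools 0.19 without saying what each did. Build, annotation and strand setting: not given in the sources used here.

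Low counts were filtered with filterByExpr (count 10, total 15, and 3 libraries as the smallest group). TMM factors and the quasi-likelihood test came from edgeR 4.0.16 in R 4.3.3, with a mean for each of 4 groups over all 12 libraries. For edgeR, the SE is the absolute log2FC divided by the square root of the F statistic, not a model SE. The 95% intervals of log2FC rest on it, and it is unstable where the log2FC is near 0. For the interaction of col10a1 it was 1.03 with TMM factors and 0.74 with RLE factors. The script was tested on simulated data. P-values are two-sided and Benjamini-Hochberg adjusted over 2962 genes, with calls under 0.05. Alternatives were DESeq2 1.42.0, limma 3.58.1 with and without a replicate block, other scalings and filters, a ribosomal share covariate and leaving out libraries. A fold against 0 counts is a lower bound set by 3 counts over the group, and intervals on counts are exact at 95% and cover counting error only. Levels of different genes were not compared.

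The 5 genes and all lists were chosen with earlier results of these data known. Values were given for at most the 4 list genes of largest change past the threshold, and for the nearest of 5 genes per chain. Genes named as not passed or not tested were chosen after their values were seen. Sequences were not used here. A member of the list of transcription regulators is not reported here.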

Additional observations from a re-analysis of the deposited data

How the results depend on the processing

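The number of the 5 genes higher in tooth over both species was 5 in every alternative except DESeq2, which gave no p for col10a1 and passed the other 4. RLE factors and library totals alone moved the median tissue log2FC of all genes from 0.21 to 0.41 and 0.54, and the share of calls higher in tooth from 61.8% to 67.3% and 70.9% (72.8% with no filter). With no filter, 3327 genes passed for tissue over both species, 1881 within L. fuelleborni, 124 for species in tooth, 229 for species in taste bud and 2 for the interaction. With a minimum count of 20, which leaves fewer genes to test, 879, 682 and 743 passed for tissue (both species, L. fuelleborni, M. zebra) and 27 for species in tooth. The log2FC of col11a1 between species in taste bud, on 6 counts, was 1.20 and turned to -0.0062 with limma voom. A ribosomal share covariate left 45 genes for species in taste bud, and turned col10a1 to -0.71 (species in tooth) and -0.51 (species in taste bud). Without the 3 libraries of highest ribosomal share, 744 genes passed for tissue in L. fuelleborni and 18 for the interaction. The species difference of col10a1 in tooth was then -0.90, and the interactions of col1a1 and col1a2 were -0.87 and -0.72. Taking libraries with at least 30 counts, the col1a2 share differed by -0.499 points between tissues and 2.40 between species in taste bud. Both values rest on a single taste bud library of L. fuelleborni (39 counts), beside M. zebra replicates with 79 and 34 counts. The cause of these changes was not tested.

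Leaving out each library in turn gave 27 to 91 genes for species in tooth, 64 to 230 for species in taste bud (0 to 2 of the 5 collagen genes) and 0 to 1 for the interaction. These counts come from 3396 to 3728 genes tested, against 2962 with all libraries, and so are not on equal sets of genes. The log2FC between species in tooth ranged from -0.87 to 1.33 for col10a1 and from -0.80 to 0.14 for col27a1, and that of col11a1 in taste bud from -0.41 to 3.91. Interactions ranged from -4.61 to 0.38 for col10a1 and from -4.33 to 0.029 for col11a1. The difference in col1a2 share ranged from -3.41 to 3.92 points between tissues and from -8.90 to 5.76 between species in taste bud.

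Replicate numbers were not shown to pair libraries. Across tissues, 3 same-numbered pairs had correlations of deviations of -0.00754, 0.0524 and 0.236, and 4 of 6 libraries correlated best with their own number. With the number within species as a replicate block in limma, 1605 genes passed for tissue, against 1590 without the block. The interaction had 1 gene with the block within species, 2 with it across species and 1 without, and col11a1 between species in taste bud was at -0.047 and -0.049 with these blocks. All 5 genes passed for tissue with either block. Depth limits the M. zebra taste bud values, where 1 count was worth up to 14.4 CPM.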
